A study of Mus musculus with 4 samples.

Results

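Sleep-deprived cortex was compared with undisturbed cortex in mice that lack the BK channel and in their wildtype littermates, to ask which transcripts differ in the same direction in both genotypes. The BK channel is a potassium channel of large conductance that opens with calcium and depolarisation. The sleep-deprived libraries were wildtype (WT SD) and BK-deficient (KO SD), from animals kept awake for 4 h by gentle handling from light onset. The baseline libraries were wildtype (WT BL) and BK-deficient (KO BL), from animals left alone over the same time. All mice were F1 C57Bl6/J x Sv129 and housed in pairs, and cortex was taken at ZT4, 4 h after light onset. Each library is 1 pool of RNA from 4 animals, so that the 4 libraries, which are all those of the series, hold 16 animals and no group has a replicate. The labels used here do not give the age of the animals or the part of the gene that was deleted.

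Genes were included when their mean over the 4 libraries was at least 50 normalised counts, which left 13550 of the 39179 genes in the table. For each gene the log2 change was taken in the wildtype pair (WT SD over WT BL) and in the knockout pair (KO SD over KO BL), after trends with GC content and transcript width were removed from each library. A log2 change without a further word is such a corrected value, while values in normalised counts are as deposited. A gene was counted as shared when it differed at least 1.5-fold (0.58 on the log2 scale) in the same direction in both pairs, and its size is the smaller of its 2 changes. The 2 pairs have no library in common.

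Wakefulness is accompanied by firing of cortical neurons, and neuronal firing switches on immediate-early genes within minutes through calcium entry, CREB, SRF and MAP kinase signalling. Their products are mostly transcription factors, followed by effectors that act at synapses, and by inhibitors that switch the same pathways off again. Prolonged wakefulness is also known in rodents to raise chaperones of the endoplasmic reticulum and stress-hormone targets in cortex, and its length is read by the brain as sleep pressure.

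Library sums were 38.7 M normalised counts in WT SD and 36.9 M in KO SD, against 34.5 M in WT BL and 34.7 M in KO BL, which corresponds to an estimated 27.7 to 42.0 M reads. Mitochondrial transcripts took 13.5% of WT SD and 19.4% of KO SD, against 13.4% of WT BL and 12.7% of KO BL. Kcnma1, the gene of the BK channel's own pore subunit, stood at 177 normalised counts in WT SD and 491 in KO SD, against 614 in WT BL and 447 in KO BL. These values do not separate the genotypes, which are therefore named as the labels give them. Before the correction the shortest 1355 genes (median 754 bp) had a median log2 change of 1.19 in the wildtype pair and 0.04 in the knockout pair, and after it of 0.17 and 0.05. For the 1355 genes richest in GC the medians before correction were 0.66 in the wildtype pair and -0.60 in the knockout pair, and after it 0.07 and 0.00.

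Of the genes compared, 441 (3.25%) were higher and 363 (2.68%) were lower by at least 1.5-fold in both pairs, together 804 genes or 5.93%. A further 143 genes (1.06%) passed 1.5-fold in opposite directions, 44 of them higher in WT SD and 99 higher in KO SD. The wildtype pair taken alone had 2503 higher genes (18.5%) and 2464 lower genes (18.2%), while the knockout pair had 1055 (7.79%) and 723 (5.34%). The shared higher genes were thus 17.6% of those higher in the wildtype pair and 41.8% of those higher in the knockout pair, and the shared lower genes 14.7% and 50.2%. Of the 1055 genes higher in KO SD, 71.8% lay above 0 in the wildtype pair, with a median of 0.43. Of the 723 genes lower in KO SD, 80.6% lay below 0 there, with a median of -0.59. Over all genes compared, 50.8% lay above 0 in the wildtype pair. Both pairs had the same sign, of any size, in 61.8% of all genes (31.4% higher, 30.4% lower). At 2-fold, 76 genes were higher (0.561%) and 64 lower (0.472%) in both pairs.

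The count depends on the correction and on the scaling. On values as deposited 509 genes were higher and 563 lower, of which 211 and 207 were also in the corrected sets. With libraries brought to equal totals and no correction the counts were 335 and 862, so that 28.0% of the shared genes were higher, against 54.9% in the corrected data. That scaling placed the median of all genes at -0.20 in the wildtype pair and -0.12 in the knockout pair. The genes nearest the threshold were Jmjd6 (0.58) and Asns (-0.58) on its inner side, and Rmdn1 (0.58) and Necap1 (-0.58) on its outer side. The plot of both pairs shows the spread of the genes and the lists described here.

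**Figure D1:**
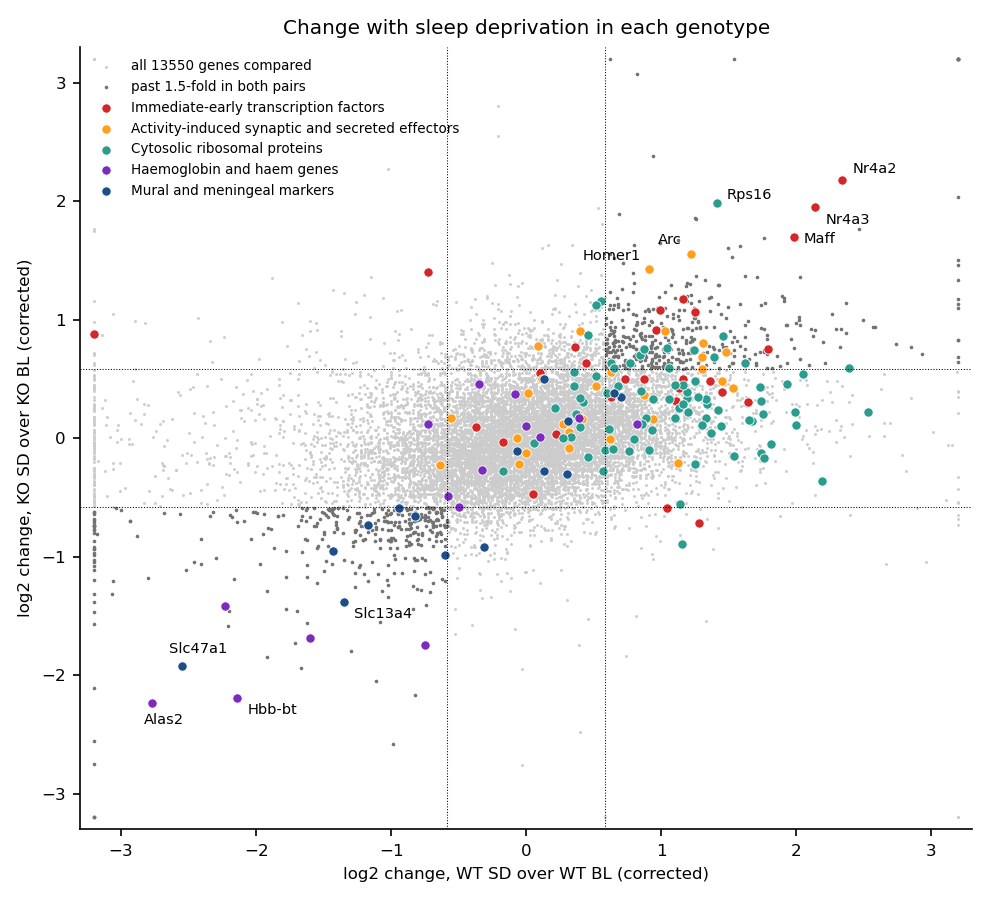
Corrected log2 change in the wildtype pair (x axis, WT SD over WT BL) against the knockout pair (y axis, KO SD over KO BL) for 13550 genes, with points beyond 3.2 drawn at the edge and dotted lines at 1.5-fold. The 441 genes higher and 363 lower in both pairs are dark grey, and 5 gene lists are coloured: Nr4a2, Nr4a3 and Maff lie at the upper right, and Hbb-bt, Alas2 and Slc47a1 at the lower left.

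A model with genotype as block (limma, additive fit, Benjamini-Hochberg over 13550 genes, two-sided) has 1 residual degree of freedom, the difference between the genotypes in their change. Its spread is drawn mostly from all genes, with 6.28 prior degrees of freedom. The p-values therefore reflect the size of a change and, to a lesser part, how alike 2 pairs of pooled libraries are. They do not measure the variation between animals. At an adjusted p below 0.05, 1 gene rose (0.00738%) and 2 fell (0.0148%), while 847 higher genes (6.25%) and 734 lower genes (5.42%) had an unadjusted p below 0.05. Gm15487, a pseudogene, stood at 16260 normalised counts in WT SD and 705 in KO SD, against 409 in WT BL and 50.5 in KO BL (limma log2 4.15, SE 0.25, adjusted p = 0.0029). Within each genotype its sleep-deprived library was far higher, but WT BL and KO SD lay within 2-fold of each other.

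Gm13841, also a pseudogene, fell to 29.7 normalised counts in WT SD and 2.63 in KO SD, against 947 in WT BL and 702 in KO BL, and both sleep-deprived values were far below both baseline ones (limma log2 -6.94, SE 0.44, adjusted p = 0.0029). Reads can be divided between a pseudogene and near-identical genes, so the levels of Gm15487 and Gm13841 are uncertain. The part of such division in their changes was not tested. The other gene that fell was 1 of 2 identifiers of B930041F14Rik with the same coordinates (mm10 chromosome 4, 155694342 to 155696481). This identifier (ENSMUSG00000074738) stood at 4.73 normalised counts in WT SD and 2.42 in KO SD, against 887 in WT BL and 1261 in KO BL. The second (ENSMUSG00000091921) stood at 1096 and 572, against 46.6 and 1.57, so that reads were divided between the copies differently in the sleep-deprived and baseline libraries. Summed over both identifiers the locus had 1101 normalised counts in WT SD and 574 in KO SD, against 933 in WT BL and 1263 in KO BL. All other genes named here missed the adjusted threshold and are described by their values, with higher and lower referring to the 2 pairs. Of the 265 genes that the naming rule took, 252 had an adjusted limma p of 0.39 or above and 13 a lower one.

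The higher transcription factors of the immediate-early class included Nr4a2, Nr4a3 and Maff. Other protein-coding genes had increases of like size, Gm14308 with 4.05 and 2.03 and Plekhg4, which shares an exon with another gene, with 2.46 and 1.76. Of 28 of these factors compared, 8 were higher in both pairs, 0 were lower and 4 went in opposite directions, a share of 28.6% higher against 3.25% of all genes. Their median log2 change was 1.01 in the wildtype pair and 0.50 in the knockout pair, against 0.01 and 0.00 over all genes, and 21 of the 28 lay above 0 in both, as did 31.4% of all genes. On deposited values 6 were higher, and 5 with libraries at equal totals. Nr4a2 (mm10 chromosome 2, 57106830 to 57124003, minus strand), an orphan nuclear receptor induced by neuronal activity, stood at 968 normalised counts in WT SD and 1635 in KO SD, against 239 in WT BL and 367 in KO BL. Both sleep-deprived values were above both baseline values, by 2.34 in the wildtype pair and 2.18 in the knockout pair (limma log2 2.26, SE 0.25, adjusted p = 0.091). Counting error alone placed the deposited wildtype change between 1.80 and 2.24 and the knockout change between 1.98 and 2.34 (95% exact binomial).

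Its relative Nr4a3 (chromosome 4, 48045153 to 48086447, plus strand) stood at 1473 normalised counts in WT SD and 1452 in KO SD, against 406 in WT BL and 484 in KO BL, with log2 changes of 2.14 and 1.95 (limma adjusted p = 0.118). Both pairs of values nearly coincided across genotypes. Maff (chromosome 15, 79347678 to 79359076, plus strand), a small Maf factor that pairs with other leucine-zipper proteins, was a scarcer transcript with 91.5 normalised counts in WT SD and 68.4 in KO SD, against 18.4 in WT BL and 30.1 in KO BL. Its log2 changes were 1.98 and 1.70 (limma adjusted p = 0.393), and counting error left the deposited change between 1.53 and 3.18 in the wildtype pair and between 0.51 and 1.91 in the knockout pair. The promoters of these 3 genes are shown because they lead the list and because calcium and cyclic AMP act on such genes through CRE motifs, which CREB binds. Capitals mark matches to the CRE (TGACGTCA) or its shorter core (TGACG) on either strand, each from 250 bases before to 50 after the start of the gene in RefSeq (GRCm38.p6).
Nr4a2, chr2:57123954-57124253, minus strand: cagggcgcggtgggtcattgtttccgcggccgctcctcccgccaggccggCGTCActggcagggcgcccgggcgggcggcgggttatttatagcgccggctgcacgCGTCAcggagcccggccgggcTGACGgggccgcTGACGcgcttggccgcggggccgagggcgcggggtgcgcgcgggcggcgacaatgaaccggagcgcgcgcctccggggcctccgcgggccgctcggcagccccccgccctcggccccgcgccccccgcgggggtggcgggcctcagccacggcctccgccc
Nr4a3, chr4:48045055-48045354, plus strand: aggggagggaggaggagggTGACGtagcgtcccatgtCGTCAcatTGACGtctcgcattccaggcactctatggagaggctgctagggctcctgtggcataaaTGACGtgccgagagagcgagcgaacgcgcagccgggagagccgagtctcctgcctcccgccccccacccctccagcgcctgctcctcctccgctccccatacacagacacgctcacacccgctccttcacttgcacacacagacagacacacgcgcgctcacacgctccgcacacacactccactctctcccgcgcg
Maff, chr15:79347270-79347569, plus strand: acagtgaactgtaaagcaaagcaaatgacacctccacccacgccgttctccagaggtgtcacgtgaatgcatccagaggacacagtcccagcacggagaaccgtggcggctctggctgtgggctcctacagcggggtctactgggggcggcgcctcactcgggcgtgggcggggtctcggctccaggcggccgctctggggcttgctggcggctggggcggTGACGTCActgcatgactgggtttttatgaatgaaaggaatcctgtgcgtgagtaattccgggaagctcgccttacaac

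The windows hold 4 cores for Nr4a2 and 4 for Nr4a3, while Maff has 1 full CRE, which holds both cores of its window. Of the 14 genes of the immediate-early and effector lists that were higher in both pairs, 10 have a promoter in the RefSeq table used, 6 of them with a core, 1 with a CRE, 1 with an AP-1 motif (TGANTCA) and 0 with a CArG box, the motif of SRF. Fosl2 has none of these motifs in its window. All motifs were searched on both strands, and each full CRE also counts as cores. Among all promoters of genes higher in both pairs, 16 of 291 (5.50%) held a CRE, against 6 of 236 (2.54%) of the genes lower in both and 325 of 9826 (3.31%) of all genes compared. The core was in 32.3% of the higher, 25.8% of the lower and 31.9% of all compared, and in 20.8% of the 32851 promoters in the table. For AP-1 these shares were 5.15%, 6.78%, 4.50% and 7.81%, and for the CArG box 1.37%, 1.27%, 1.27% and 1.63%.

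The other 5 members of the list that were higher in both pairs were Fosl2, Crem, Klf2, Egr2 and Fosb. Fosl2, a Fos-family subunit of AP-1, stood at 1723 normalised counts in WT SD and 2086 in KO SD, against 1129 in WT BL and 1062 in KO BL, with nearly equal log2 changes of 1.16 and 1.17. Crem, whose inducible form represses CREB targets, stood at 1545 and 1434, against 626 and 489, although it shares an exon with another gene. Klf2, a zinc-finger factor, had changes of 0.99 and 1.08, Egr2 of 0.96 and 0.91, and Fosb of 1.79 and 0.75. Fos itself, the classic marker of recent firing, stood at 1727 normalised counts in WT SD and 1241 in KO SD, against 900 in WT BL and 931 in KO BL. Its changes of 0.36 and 0.77 had the same sign but only the second passed 1.5-fold. Egr1 (0.73 and 0.50) and Nr4a1 (1.16 and 0.50) passed in the wildtype pair alone, and Npas4, a factor tied closely to calcium entry in neurons, lay near 0 in both pairs (-0.17 and -0.03).

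Among effectors of activity, which act at synapses or are secreted, 6 of 29 were higher in both pairs (20.7%) and 0 lower, with medians of 0.52 in the wildtype pair and 0.38 in the knockout pair. Arc (chromosome 15, 74669083 to 74672570, minus strand), which drives removal of AMPA receptors from synapses, stood at 11010 normalised counts in WT SD and 14370 in KO SD, against 4207 in WT BL and 7348 in KO BL. The sleep-deprived values were the higher ones in each genotype, by 1.22 and 1.55 (limma log2 1.38, SE 0.25, adjusted p = 0.393). Homer1, whose short inducible form loosens the scaffold of metabotropic glutamate receptors, stood at 9724 and 15300, against 6421 and 4051, with changes of 0.91 and 1.43. Those values are for the whole gene and do not separate its short and long forms. Nptx2, a secreted pentraxin that gathers AMPA receptors, had changes of 1.31 and 0.80, Trib1, a pseudokinase, of 1.03 and 0.90, Tnfaip6, a hyaluronan-binding protein, of 1.48 and 0.73, and Acan, the aggrecan of perineuronal nets, of 1.30 and 0.68. Bdnf, the neurotrophin, lay just under the threshold at 1.30 and 0.58, with 1825 normalised counts in WT SD and 2020 in KO SD, against 1017 in WT BL and 838 in KO BL. Its values share an exon with another gene.

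Inhibitors of MAP kinase signalling had 4 of 17 higher in both pairs after the correction (23.5%) and 0 lower. Dusp6, a phosphatase that switches off ERK, stood at 3677 normalised counts in WT SD and 3431 in KO SD, against 2597 in WT BL and 1925 in KO BL, with changes of 0.93 and 0.81. Dusp5, another ERK phosphatase, which shares an exon with another gene, had changes of 1.51 and 0.90. Spry4 had changes of 0.66 and 0.83, and Spred1 of 0.63 and 0.59. On deposited values and with equal totals 0 of the 17 passed in both pairs, so this count rests on the correction. Sik1, a salt-inducible kinase that restrains CREB coactivators and is studied in sleep need, stood at 362 normalised counts in WT SD and 412 in KO SD, against 168 in WT BL and 247 in KO BL, with changes of 1.42 and 1.13. It and Crem were the 2 higher members of 12 in the list of salt-inducible kinases and CREB coactivators. Camk2n1, an inhibitor of CaM kinase II, was the only 1 of 13 genes of the CaM kinase list past 1.5-fold in both pairs, at 0.79 and 1.05, and that list gave 1 lower gene and 0 higher on deposited values.

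**Figure D2:**
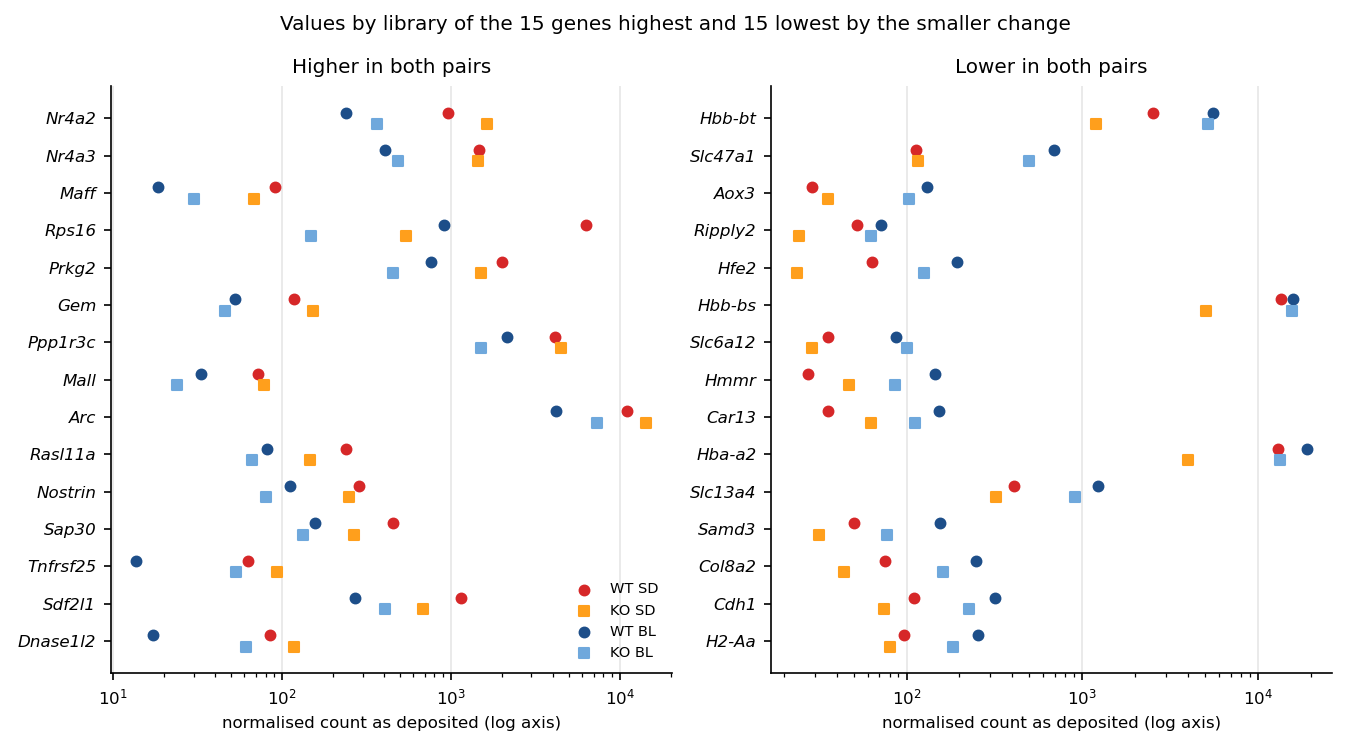
Deposited normalised counts (x axis, log scale) in the 4 libraries for the 15 genes highest (left) and the 15 lowest (right) by the smaller corrected change, with sleep-deprived libraries in red and orange and baseline libraries in dark and light blue. Within each genotype every sleep-deprived value lies above its baseline value on the left and below it on the right, by least for Hbb-bs in wildtype (13390 in WT SD, 15840 in WT BL).

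The 15 genes highest by the smaller change ranged between 1.18 and 2.18, with limma adjusted p between 0.091 and 0.45, and 14 had an unadjusted p below 0.05. Their corrected sleep-deprived values lay above both baseline values in 13 of 15, which held for 425 of the 441 shared higher genes and for 25.9% of all genes compared. They were chosen by the size of the same changes, so these values describe them and do not test them. Besides the 4 early and effector genes, they were Rps16, Prkg2, Gem, Ppp1r3c, Mall, Rasl11a, Nostrin, Sap30, Tnfrsf25, Sdf2l1 and Dnase1l2. Prkg2 (chromosome 5, 98929773 to 99037351, minus strand), the membrane-bound kinase activated by cyclic GMP, stood at 2003 normalised counts in WT SD and 1508 in KO SD, against 767 in WT BL and 456 in KO BL. Both sleep-deprived values were well above both baseline ones, with changes of 1.71 and 1.36 (limma adjusted p = 0.355). Gem, a small GTP-binding protein that inhibits voltage-gated calcium channels, stood at 118 and 152, against 52.8 and 46.3, with changes of 1.43 and 1.29.

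Nostrin, which binds the endothelial nitric oxide synthase, stood at 286 normalised counts in WT SD and 250 in KO SD, against 111 in WT BL and 80.1 in KO BL. Its changes of 1.22 and 1.21 were nearly equal, and so were those of Sap30, a subunit of the Sin3 histone deacetylase complex, at 1.19 and 1.20. Rasl11a, a small GTPase of the Ras family, had changes of 1.21 and 1.30. Mall, Tnfrsf25 (a receptor of the TNF family) and Dnase1l2 (a DNase) were scarce, and counting error in them was large: the deposited change of Tnfrsf25 in the knockout pair could lie between 0.28 and 1.35. Its corrected groups overlapped and it had an unadjusted limma p of 0.0632. Rps16, a protein of the small ribosomal subunit, stood at 6327 normalised counts in WT SD and 542 in KO SD, against 909 in WT BL and 150 in KO BL. Its KO SD value was below its WT BL value, and ribosomal protein genes have near-identical pseudogenes between which reads can be divided, so its level is uncertain.

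Genes of protein folding and of hormone and metabolic signalling held a few shared higher members each. In the list of ER chaperones and the unfolded protein response, 4 of 27 were higher (14.8%) and 0 lower. With GC alone removed 6 were higher and 2 lower, and on deposited values 3 and 0. Chac1 of this list had changes of -0.57 and -0.71, just under the threshold in the wildtype pair. Sdf2l1, a component of the ER chaperone complex, stood at 1150 normalised counts in WT SD and 680 in KO SD, against 271 in WT BL and 407 in KO BL, with changes of 1.37 and 1.19. Creld2, an ER stress-induced protein, had changes of 1.58 and 1.13, and Atf4, the transcription factor of the integrated stress response, of 1.07 and 0.75. Hspa5, the central ER chaperone BiP, stood at 15230 normalised counts in WT SD and 18300 in KO SD, against 10740 in WT BL and 9435 in KO BL, and its changes of 0.33 and 0.85 passed only in the knockout pair. Of the heat shock chaperones outside the ER, 2 of 33 were higher in both pairs, Hspb1 (1.25 and 1.01) and Hspe1 (1.27 and 0.63). Hspe1 shares an exon with another gene, and equal totals gave 1 higher and 1 lower.

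Of 21 glucocorticoid-responsive genes and metallothioneins, 3 were higher in both pairs (14.3%), 0 lower and 3 opposite. Tsc22d3, the glucocorticoid-induced leucine zipper, stood at 8093 normalised counts in WT SD and 4324 in KO SD, against 2238 in WT BL and 1980 in KO BL, with changes of 1.91 and 1.16. Cdkn1a, the cell-cycle inhibitor p21, had changes of 1.22 and 1.14 and shares an exon with another gene, and Mt3, the brain metallothionein, of 1.07 and 0.60. Sgk1, a kinase gene switched on by glucocorticoids, lay near 0 in both pairs (0.00 and -0.13). Among thyroid hormone genes, Dio2, the astrocyte enzyme that makes active hormone, stood at 9174 normalised counts in WT SD and 12840 in KO SD, against 4222 in WT BL and 2896 in KO BL. Both sleep-deprived values were above both baseline ones, with changes of 1.76 and 1.69 (limma adjusted p = 0.232), and it too shares an exon. Dio3, the enzyme that inactivates the hormone, had changes of 1.78 and 0.84 at low values, between 18.4 and 89.9 normalised counts. The transporter Slc7a8 (-0.74 and -0.74) was lower, and the list had 3 higher and 2 lower of 14. On deposited values it had 1 higher and 2 lower, and with equal totals 1 and 3.

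In the list of glycolysis, glycogen and lactate, 3 of 32 were higher and 1 lower. The higher ones were 2 glycogen-targeting subunits of protein phosphatase 1 and a regulator of glycolysis. Ppp1r3c stood at 4135 normalised counts in WT SD and 4488 in KO SD, against 2139 in WT BL and 1511 in KO BL, with changes of 1.42 and 1.29 (limma log2 1.35, SE 0.24, adjusted p = 0.393). Ppp1r3g had changes of 1.93 and 0.95, and Pfkfb3, which makes the activator of phosphofructokinase, of 0.79 and 0.86. Gapdh was lower at -0.72 and -0.59 after correction, but shares an exon, and its deposited values of 54940 in WT SD and 36860 in KO SD, against 39500 in WT BL and 68990 in KO BL, go in opposite directions. With equal totals 1 gene of the list was higher and 2 lower. In cholesterol synthesis, Insig1, the sterol sensor, and Cyp51, which shares an exon, were higher, 2 of 27, while on deposited values 1 was higher and 2 lower.

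Clock genes divided evenly, with 2 of 23 higher and 2 lower. Per2, a repressor of the clock, stood at 793 normalised counts in WT SD and 1222 in KO SD, against 553 in WT BL and 786 in KO BL, with changes of 0.92 and 0.99. Ciart, a repressor of the clock, was lower at -0.75 and -1.15. So was Nr1d1, the nuclear receptor Rev-erb alpha, at -0.67 and -0.87, and it shares an exon with another gene. Dbp, a clock output, had changes of -0.12 and -0.62, and Per1, another repressor, of 0.62 and -0.01. On deposited values 1 clock gene was higher and 0 lower, and with equal totals 0 in either direction. Of the 5 cold-inducible RNA-binding genes none passed in both pairs, against 5.93% of all genes. Cirbp stood at 1573 normalised counts in WT SD and 1068 in KO SD, against 1614 in WT BL and 2118 in KO BL, and its changes of -1.31 and -0.57 brought it just under the threshold.

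Among genes of the RNA and protein machinery, cytosolic ribosomal proteins had the most shared members, with 14 of 80 higher in both pairs (17.5%) and 0 lower, and their median was 1.10 in the wildtype pair and 0.27 in the knockout pair. On deposited values their wildtype median was 2.12 and 22 were higher. Without genes that share exons, repeat a symbol or are at 0 the count was 4 of 42, against 255 of 8363 over all genes so kept. Rps24, of the small subunit, stood at 41900 normalised counts in WT SD and 16890 in KO SD, against 9109 in WT BL and 7883 in KO BL, with changes of 1.24 and 0.74. The nuclear-encoded respiratory chain had 2 of 80 higher (2.50%), Atp5e (2.20 and 0.81) and Ndufb2 (1.93 and 0.63), which shares an exon. On deposited values 7 of the 80 were higher, with GC alone removed 11, and with equal totals or width alone removed 4. The 13 messengers encoded by mitochondria had 0 higher and 3 lower after correction, while on deposited values 2 were higher and 0 lower, so the direction of this group turns with the processing. Reads that fall on 2 overlapping mitochondrial genes cannot be told apart.

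Splicing factors had 5 of 103 higher (4.85%, against 3.25% of all genes) and 2 lower (1.94%, against 2.68%), and on deposited values 9 higher and 2 lower. The higher ones were the SR or SR-like proteins Srsf7 (1.23 and 0.60), Srsf10 (1.06 and 0.76), Srsf6 (0.67 and 0.74) and Tra2a (1.02 and 0.63), and Clk4 (0.88 and 0.66), a kinase that phosphorylates SR proteins. Srsf10 stood at 2698 normalised counts in WT SD and 2705 in KO SD, against 1432 in WT BL and 1034 in KO BL, without overlap between sleep-deprived and baseline libraries. Histone genes had 3 of 20 higher (15%), Hist2h3c1, Hist1h2bc and Hist1h1c, members of multigene families in which reads can be divided between copies. Lars2, the mitochondrial leucyl-tRNA synthetase, stood at 19270 normalised counts in WT SD and 10590 in KO SD, against 47230 in WT BL and 53160 in KO BL. It was lower in both pairs at -0.82 and -2.17, and was the only 1 of 35 tRNA synthetases past 1.5-fold in both. Of 76 mitochondrial ribosomal proteins 1 was higher after correction, against 6 on deposited values, 5 with GC alone removed and 4 with equal totals. There were 1 higher and 1 lower of 73 translation initiation factors and 1 lower of 41 proteasome subunits, for which deposited values gave 3 higher and 0 lower. Of 58 chromatin-modifying enzymes 2 were higher after correction and 0 on deposited values, where 4 were lower. The 313 Zfp zinc-finger genes had 4 in each direction, against 2 higher and 7 lower on deposited values.

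The largest shared decreases among named genes included transcripts of red blood cells and of the meninges. Haemoglobin and haem genes had 0 of 15 higher and 5 lower (33.3%), against 2.68% of all genes. Hbb-bt (chromosome 7, 103812524 to 103813996, minus strand), an adult beta globin, stood at 2510 normalised counts in WT SD and 1199 in KO SD, against 5536 in WT BL and 5145 in KO BL. Both sleep-deprived values were below the baseline values, by -2.14 and -2.19 (limma log2 -2.17, SE 0.24, adjusted p = 0.091). Alas2, the haem synthesis enzyme of red cell precursors, stood at 110 and 107, against 672 and 516, with changes of -2.77 and -2.24, and shares an exon with another gene.

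The other globins depended on the correction in the wildtype pair. Hbb-bs stood at 13390 normalised counts in WT SD and 5073 in KO SD, against 15840 in WT BL and 15540 in KO BL, a deposited change of -0.24 and -1.61 and a corrected one of -1.60 and -1.69. Hba-a2 had deposited changes of -0.53 and -1.72 and corrected ones of -2.23 and -1.42. Hba-a1 was deposited at 9341 in WT SD and 1804 in KO SD, against 5331 in WT BL and 7715 in KO BL, so that it was higher in WT SD before the correction, and its corrected changes were -0.75 and -1.75. The alpha globins are near-identical copies, as are the beta globins, and reads may be divided between them. On deposited values 2 of the 15 genes were lower in both pairs. Haem genes that all cells use did not pass in both pairs, such as Fech (-0.33 and -0.27).

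Markers of mural and meningeal cells had 0 of 15 higher and 7 lower (46.7%), with medians of -0.31 in the wildtype pair and -0.59 in the knockout pair. All 7 are known from fibroblasts of the leptomeninges: the transporters Slc47a1, Slc13a4, Slc6a13 and Slc22a6 and the matrix proteins Dcn, Fmod and Lum. Slc47a1 (chromosome 11, 61343401 to 61378345, minus strand), an exporter of organic cations, stood at 113 normalised counts in WT SD and 116 in KO SD, against 690 in WT BL and 496 in KO BL. The groups lay far apart, with changes of -2.55 and -1.92 (limma log2 -2.23, SE 0.31, adjusted p = 0.232). Slc13a4, a sulfate transporter, stood at 406 and 322, against 1222 and 910, with changes of -1.35 and -1.38. Slc6a13, a GABA transporter, had changes of -1.43 and -0.95. Lum is the weakest of the 7: its deposited values of 109 in WT SD and 87.8 in KO SD, against 250 in WT BL and 86.4 in KO BL, did not differ in the knockout pair before correction.

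Some markers of smooth muscle and pericytes in the same list did not share this direction. Acta2 had changes of 0.30 and -0.30, Myh11 of 0.31 and 0.14, Rgs5 of 0.13 and 0.50, and Kcnj8 of 0.70 and 0.35. The values of Pdgfrb and Tagln, also mural markers of the list, are not given here. Of the 15 markers, 9 lay below 0 in both pairs and 4 above. Ptgds, the abundant prostaglandin D synthase of meninges and oligodendrocytes, stood at 67860 normalised counts in WT SD and 23070 in KO SD, against 43730 in WT BL and 56250 in KO BL. It dominates the summed level of the 15 markers, which was 78178 in WT SD and 32584 in KO SD, against 55798 in WT BL and 66683 in KO BL and thus did not separate the treatments. In pooled tissue fewer cells of a type and less RNA per cell cannot be told apart, and the part of meningeal or blood content in the decreases here was not tested. Collagens, which meningeal cells also make, had 1 of 28 higher and 4 lower, Col8a2 (-1.92 and -1.29), Col3a1 (-1.08 and -1.55), Col5a2 (-0.77 and -1.01) and Col12a1 (-0.78 and -0.67).

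The 15 genes lowest by the smaller change ranged between -2.14 and -1.19, with limma adjusted p between 0.091 and 0.393, and the corrected groups did not overlap in any of them, which held for 357 of the 363 shared lower genes and 24.8% of all genes. On deposited values 12 of the 15 passed 1.5-fold in both pairs. Besides Hbb-bt, Hbb-bs, Hba-a2, Slc47a1, Slc13a4 and Col8a2 they were Aox3, Ripply2, Hfe2, Slc6a12, Hmmr, Car13, Samd3, Cdh1 and H2-Aa. Cdh1, the E-cadherin of epithelia, which leptomeningeal cells also make, stood at 110 normalised counts in WT SD and 74.5 in KO SD, against 319 in WT BL and 228 in KO BL, with nearly equal changes of -1.27 and -1.26. H2-Aa, a chain of MHC class II on antigen-presenting cells, stood at 96.5 and 80.1, against 255 and 184, with changes of -2.16 and -1.19. Aox3, an aldehyde oxidase, had changes of -1.92 and -1.85, Slc6a12, a betaine and GABA transporter, of -1.70 and -1.46, and Hfe2, the iron regulator hemojuvelin, of -1.67 and -1.94. The others were scarce, with Hmmr between 27.4 and 145, Car13 between 35.6 and 154, Samd3 between 31.6 and 155 and Ripply2 between 24.6 and 71.2 normalised counts over the 4 libraries.

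Most lists of ion channel and synaptic genes had more lower than higher shared members, but in small counts. Some of their shares lay near those of all genes. Over all genes compared the shares were 3.25% higher and 2.68% lower. Potassium channels other than BK and their subunits had 1 of 60 higher (1.67%) and 6 lower (10%). Kcna2, a delayed rectifier of axons, stood at 16.1 normalised counts in WT SD and 175 in KO SD, against 530 in WT BL and 303 in KO BL, so that its changes of -4.49 and -0.69 were very unequal. Kcnj11, a subunit of the ATP-sensitive channel, showed the same inequality (-3.90 and -0.97). Kcnh2 (-0.89 and -0.59), Kcne4 (-0.75 and -1.03) and Kcnj13 (-1.97 and -1.06) were also lower, and Kcnn2, a small-conductance calcium-activated channel, was higher (1.06 and 0.79). Calcium channels, release channels and pumps had 0 of 42 higher and 3 lower (7.14%). These were Cacnb2, a channel subunit (-0.92 and -1.14), Slc8a2, a sodium-calcium exchanger (-0.80 and -0.69), and Atp2b3, a calcium pump of the plasma membrane (-2.56 and -0.64). Deposited values gave 8 lower calcium genes and 9 lower potassium genes.

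At the synapse, Nsf, the ATPase that takes SNARE complexes apart, stood at 17640 normalised counts in WT SD and 19470 in KO SD, against 29350 in WT BL and 32700 in KO BL. The groups did not overlap, with changes of -0.80 and -0.89. Grin1, the obligatory NMDA receptor subunit, stood at 5528 and 6141, against 8303 and 13880, with changes of -0.67 and -0.63, and shares an exon. In all, 1 of 40 glutamate receptors and scaffolds was higher (2.5%), Homer1, and 2 lower (5%). Of 46 vesicle genes 1 was higher (2.17%) and 2 lower (4.35%). Of 24 receptors for monoamines, acetylcholine, histamine and orexin, 3 were lower (12.5%), Chrm3, Chrnb3 and Htr5a, and 1 higher (4.17%), the serotonin receptor Htr1b (0.79 and 1.39). On deposited values 0 vesicle genes were higher and 5 lower, and 0 of these receptors higher and 6 lower, while equal totals gave 8 lower vesicle genes and 6 lower receptors. Of 20 GABA genes 1 was higher (5%), the receptor subunit Gabrg1 (0.70 and 0.74), and 0 lower. Scn4b, an auxiliary sodium channel subunit, was lower at -1.43 and -0.64, and the sodium channel gene Scn7a was higher at 0.80 and 1.63. This makes 1 of 8 sodium channel genes (12.5%) in each direction. On deposited values and with equal totals 0 of the 8 were higher and 1 lower. Slc29a1, a nucleoside transporter that moves adenosine across the plasma membrane, was the only 1 of 11 adenosine genes past the threshold (9.09%), at -1.01 and -0.64.

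Neuropeptides and granins had 4 of 26 higher (15.4%) and 1 lower. Crh, the corticotropin-releasing hormone of cortical interneurons, stood at 751 normalised counts in WT SD and 453 in KO SD, against 279 in WT BL and 248 in KO BL, with changes of 1.29 and 0.94. Cartpt had changes of 0.79 and 1.23, Igf1 of 0.71 and 0.82, and Cpe, a peptide-processing enzyme, of 1.21 and 0.81. Penk, the enkephalin precursor, was lower at -0.95 and -0.63, and shares an exon. None of the 19 interferon-response genes passed in both pairs, against 5.93% of all genes.

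Lists for the main cell types of cortex had few shared members. The cortical label could not be checked without another tissue to compare. Excitatory neuron markers summed to 211989 normalised counts in WT SD and 227221 in KO SD, against 244029 in WT BL and 287473 in KO BL. Of 13 compared, 1 was higher, Bcl11b, a factor of deep-layer neurons (0.59 and 0.79). Astrocyte (13 compared), oligodendrocyte (12), oligodendrocyte precursor (7) and endothelial markers (11) had 0 past 1.5-fold in both pairs. As 5.93% of all genes passed, 0 in lists of this size does not set these markers apart. Of 13 astrocyte markers, 8 lay above 0 in both pairs and 0 below, with medians of 0.18 and 0.51. Their deposited sum was 302807 normalised counts in WT SD and 396175 in KO SD, against 282059 in WT BL and 241212 in KO BL. It was higher in the sleep-deprived library of each genotype, but it is not scaled to the library totals. WT SD held 38.7 M normalised counts in all and WT BL 34.5 M, so the direction in wildtype depends on the scaling. With equal totals the median change of these markers was 0.06 in the wildtype pair and 0.66 in the knockout pair. The part of astrocyte content in the value of Dio2, an astrocyte enzyme, was not tested. Microglia had 1 of 12, Aif1 (1.20 and 0.93). Interneuron markers had 2 of 13 lower, Adarb2 (-0.70 and -0.79) and Dlx2 (-1.44 and -0.62). Markers of regions beside the cortex were read in all libraries. Of 7 thalamic markers 1 was higher, Tcf7l2 (1.19 and 0.93), and 0 lower, of 7 striatal markers 1 was higher and 1 lower, and of 4 hippocampal markers 0 passed in both pairs in the same direction. Of 4 choroid plexus and ependyma markers compared, 2 were lower in both pairs, Kl (-0.69 and -0.71) and the potassium channel gene Kcnj13 (-1.97 and -1.06), and the summed level of all 9 listed was 202 in WT SD and 796 in KO SD, against 344 in WT BL and 376 in KO BL. Ttr, the abundant transcript of choroid plexus, stood at 23.8 normalised counts in WT SD and 581 in KO SD, against 25.3 in WT BL and 65.0 in KO BL, so that KO SD stood apart. The part of these other tissues in the results was not tested.

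**Figure D3:**
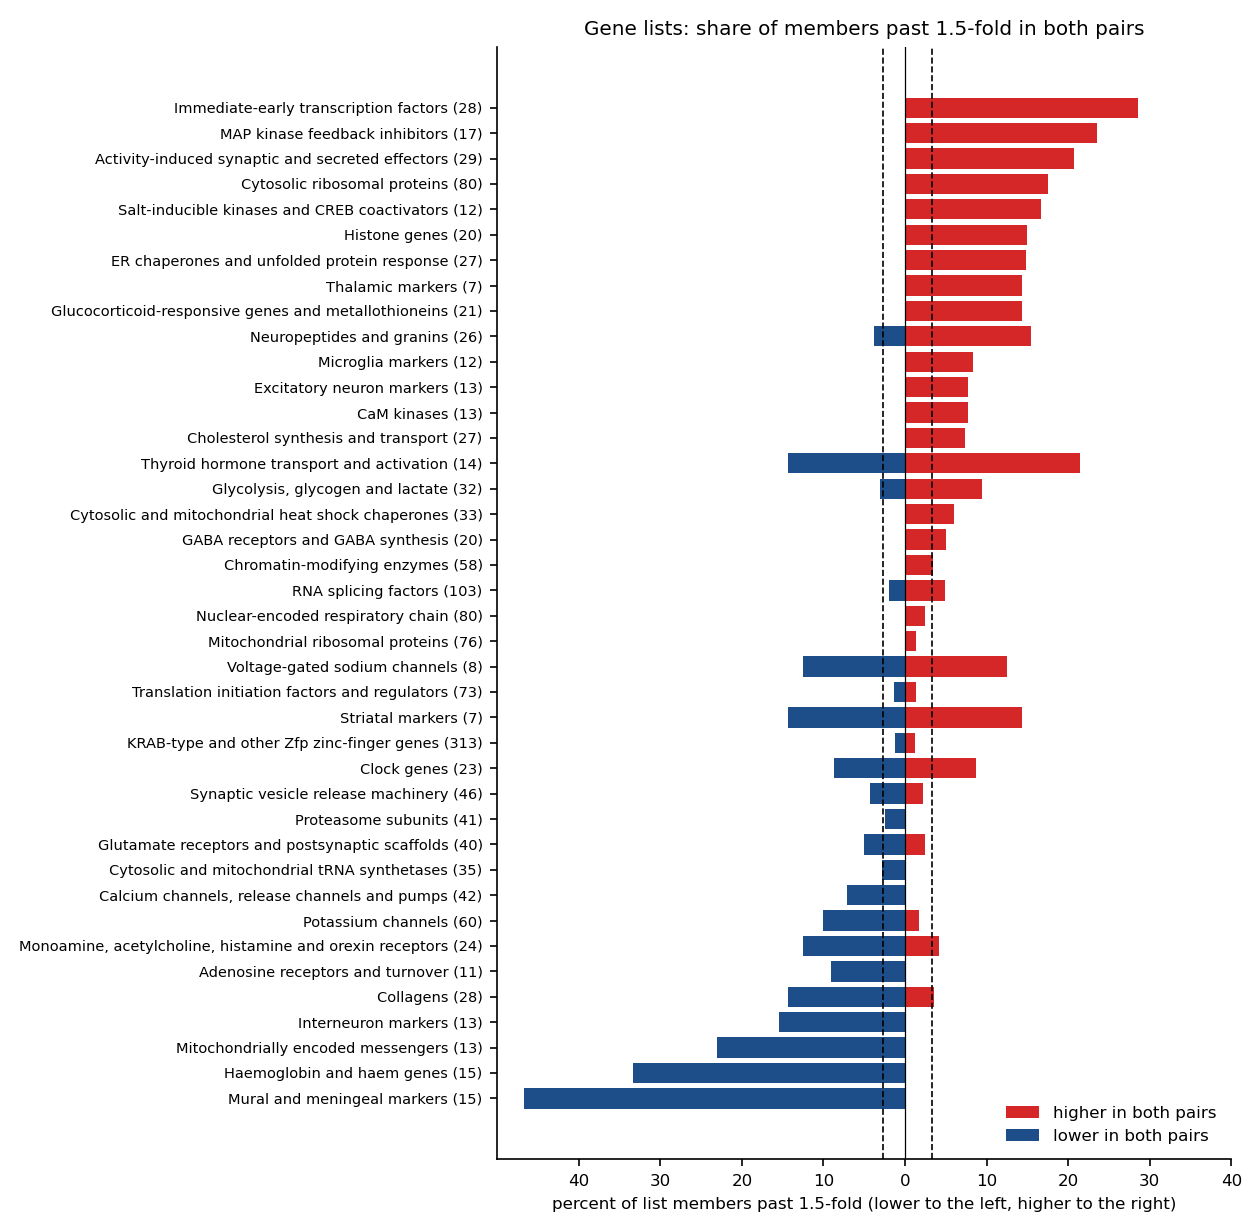
Share of each gene list's compared members (number in brackets) past 1.5-fold in both pairs, with genes higher in sleep-deprived libraries to the right in red and lower ones to the left in blue. Dashed lines mark 3.25% and 2.68%, the shares over all genes, and lists with fewer than 5 compared members or none past 1.5-fold are left out. Immediate-early transcription factors (28.6%) extend farthest to the right, and mural and meningeal markers (46.7%) farthest to the left.

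**Figure D4:**
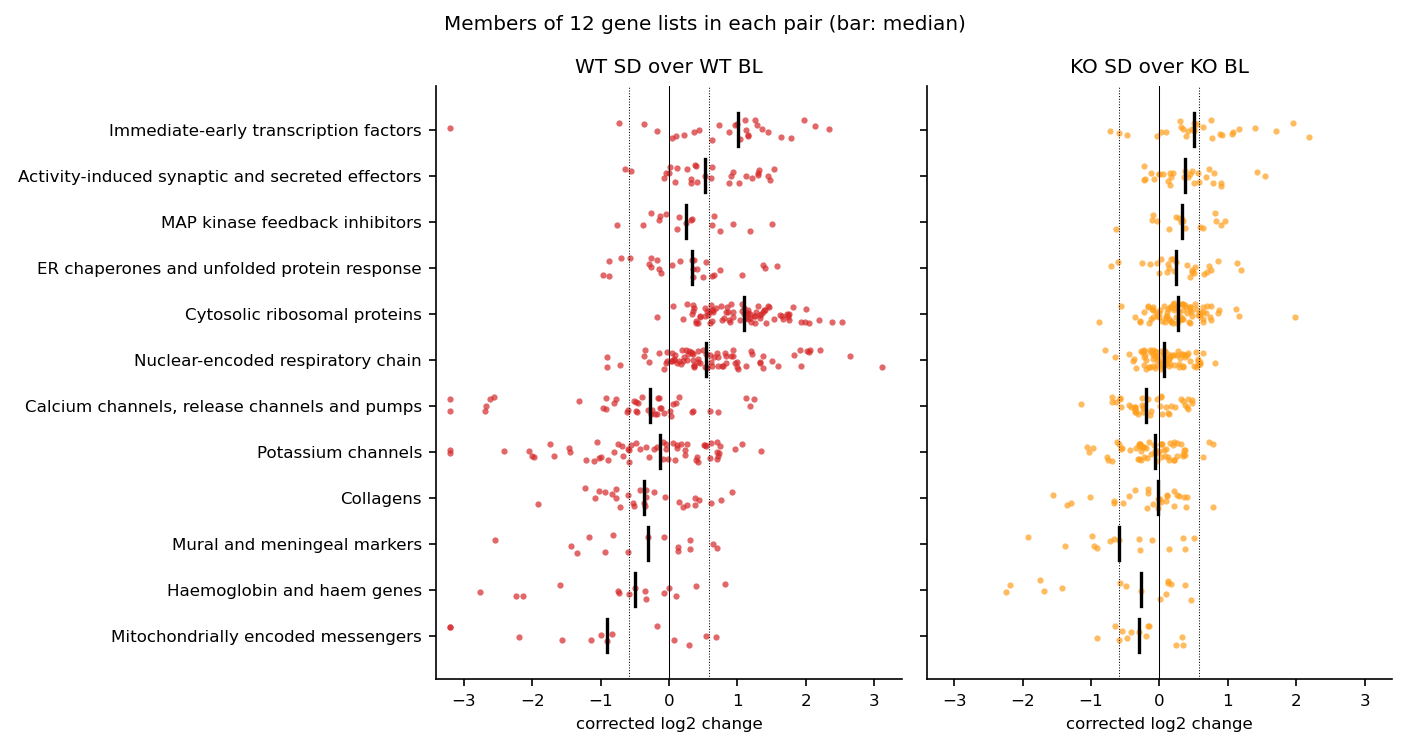
Corrected log2 change (x axis) of each member of 12 gene lists in the wildtype pair (left panel) and the knockout pair (right panel), with black bars at the medians, dotted lines at 1.5-fold and points beyond 3.2 drawn at that value. Ribosomal proteins lie at a median of 1.10 on the left and 0.27 on the right, while immediate-early factors lie at 1.01 and 0.50.

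The shared genes did not differ much from the rest in GC content and width, whose trends were removed before the genes were called. They were scarcer, with a median level over the libraries of 655 normalised counts in the higher genes and 314 in the lower genes, against 830 in all. Median GC content was 51.5% in the higher genes, 50.8% in the lower genes and 50.8% in all, and median width was 1924, 1979 and 2015 bp. Protein-coding genes made up 86.4% of the higher and 89.8% of the lower genes, against 95% of all, and pseudogenes 6.80% and 4.41%, against 1.59%. Exons were shared by 34% of the higher and 32% of the lower genes, against 36.6% of all. After genes without protein-coding type, with a shared exon, a repeated symbol, a library at 0 or a Gm or Rik name were set aside, 231 of the 441 higher genes and 210 of the 363 lower genes could be named. The higher gene with the largest smaller change was passed over in this way: the pseudogene Gm10259 stood at 142 normalised counts in WT SD and 132 in KO SD, and is listed at 0 in WT BL and KO BL. The median smaller change was 0.75 in the higher genes and -0.74 in the lower genes.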

How the data were processed

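Total RNA of mouse brain cortex was sequenced on a HiSeq2500 as 4 pooled libraries (4 animals each), per the labels' protocols. The submitters' processing notes name RSEM 1.2.19 and edgeR on mm10 (GRCm38). The aligner is not given in the sources used here, nor what each tool did. The expression signal, as deposited by the authors, is not whole. It was taken here to be an estimated count per gene divided by 1 factor per library. The GC fraction and the transcript width in bp are also as deposited by the authors. Repeats of the same values in other tables were not used.

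Values were taken as log2(value + 1) for the 13550 genes whose mean reached 50, of which 4960 share an exon with another gene on either strand, 119 have a repeated symbol and 47 are at 0 in a library; for 160 the overlap could not be found. The value of 1 read in each library was assumed to be its commonest value above 0. On this basis 3 reads equal 3.33 normalised counts in WT SD and 2.63 in KO SD, against 3.44 in WT BL and 3.76 in KO BL. Intervals from estimated reads cover counting error alone. Each library's deviation from the 4-library mean was fitted by symmetric loess (span 0.3, degree 2) on GC and log10 width, and the fit was subtracted, which also centres the libraries. A fold change on this scale understates that of scarce genes. limma 3.58.1 in R 4.3.3 (trend variance, genotype as block) had 1 residual and 6.28 prior degrees of freedom. The steps were run on simulated data with independent noise of equal size in every gene and library. That run checks the steps and gives no rate of false calls for the data here.

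The naming rule took the 15 protein-coding genes highest and 15 lowest by the smaller change past 1.5-fold in both pairs, with a symbol of 1 identifier, no library at 0, no shared exon and no Gm or Rik name. It also took from each of 48 lists up to 5 members by size and those past 1.5-fold in opposite directions, and Kcnma1. Genes that passed limma were also named. A few others, such as Fos, Egr1, Bdnf, Npas4, Hspa5 and Ttr, were chosen after their values were seen. The genes, lists and comparisons were chosen with earlier results of these data known. Alternatives changed the correction, scaling, pseudocount, filter, threshold, model and libraries used. The members of lists with repeated symbols were left out, and 14 symbols that had become dates were read by their identifiers. Some members that are counted here are not reported by name. A shared exon is not stated for every gene that has one.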

Additional observations from a re-analysis of the deposited data

Results flagged for a closer look

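Of the listed genes, 14 passed 1.5-fold in opposite directions in the 2 genotypes. With 1 library per group the difference between the genotypes was not tested, and 143 of all genes compared (1.06%) did the same.

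Higher in WT SD and lower in KO SD were Junb, an AP-1 subunit (1.28 in the wildtype pair, -0.72 in the knockout pair), Ier5l (1.04, -0.59), Dusp2, a MAP kinase phosphatase (1.18, -0.64), Plin4, a lipid droplet protein (2.66, -1.06), Cox7c (0.91, -0.65) and Rps6 (1.15, -0.89). Junb stood at 1217 normalised counts in WT SD and 349 in KO SD, against 286 in WT BL and 936 in KO BL, and shares an exon with another gene, as does Plin4.

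Lower in WT SD and higher in KO SD were Egr3, an early zinc-finger factor (-5.40 in the wildtype pair, 0.88 in the knockout pair), Htr2a, a serotonin receptor (-4.87, 0.63), Zfp317 (-3.14, 0.87), Zfp780b (-2.82, 0.97), Klf9, a glucocorticoid target (-1.57, 0.59), Zfp882 (-1.16, 1.02), Pdk4, a kinase that inhibits pyruvate dehydrogenase (-1.15, 1.36), and Klf4 (-0.73, 1.40). Egr3 stood at 18.9 normalised counts in WT SD and 801 in KO SD, against 413 in WT BL and 696 in KO BL, so that WT SD alone stood far below the other libraries. Htr2a stood at 3.40 normalised counts in WT SD, near the value of 3 reads, and at 174 in KO SD, against 180 in WT BL and 97.0 in KO BL. The direction of Klf4 in wildtype rests on the correction, since its deposited values were 202 in WT SD and 177 in WT BL.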

How the results depend on the processing

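The counts of 441 higher and 363 lower genes moved to 670 and 573 with a mean of at least 10, to 289 and 228 with a mean of at least 200, to 255 and 227 without genes that share exons, repeat a symbol or are at 0, and to 76 and 64 at 2-fold. The lower count was 563 on deposited values and 862 with equal totals; the other settings gave 335 to 509 higher and 325 to 486 lower. limma (1 higher, 2 lower) called 33 and 69 on deposited values, 34 and 126 with width alone removed, 25 and 85 with equal totals, 1 and 1 with GC alone removed, 3 and 3 with a mean of at least 200, 3 and 2 without the uncertain genes, 3 and 3 without a trend in the variance and 2 and 3 with robust moderation. Without the replicate block, which here is genotype, it called 0 and 1. Leaving out 1 library at a time gave 0 to 1742 higher and 0 to 1667 lower calls by limma, without a genotype block and with the lone sample assumed to vary like the rest. The highest were without KO SD, where WT SD stands alone, against 2 and 8 without WT SD, 1 and 0 without WT BL and 0 and 0 without KO BL. Without WT SD or WT BL a shared change could not be counted, only the 1055 higher and 723 lower genes of the knockout pair. On deposited values 87 of 138 named genes past 1.5-fold kept their call and 51 lost it. No named gene reversed in both pairs. A gene that turned in only 1 pair counts as lost, such as Gapdh in wildtype (-0.72 corrected, 0.48 deposited). With equal totals 55 lost their call. The causes were not tested. Depth limits genes near 3 reads, 2.63 to 3.76 normalised counts.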
